A study of Homo sapiens with 30 samples.

Results

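The genes described here encode integrins and laminins and were matched by symbol: integrin α chains (ITGA), integrin β chains (ITGB) and the laminin α, β and γ chains (LAMA, LAMB, LAMC). These families were chosen with earlier results of these data known. Of 23262 genes in the time-course tables, 38 matched: 18 ITGA, 8 ITGB, 5 LAMA, 4 LAMB and 3 LAMC genes. At least 10 counts were reached in 1 or more columns by 31 of the 38, and these are described: 14 ITGA, 8 ITGB, 4 LAMA, 3 LAMB and 2 LAMC genes. The other 7 (ITGA8, ITGAD, ITGAM, ITGAX, LAMA3, LAMB4 and LAMC3) stayed under 10 counts in every column.

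Integrins are cell surface receptors made of 1 α and 1 β chain that tie the extracellular matrix to the actin cytoskeleton. Laminins are trimers of 1 α, 1 β and 1 γ chain, and they form the sheet of the basement membrane. ITGA3, ITGA6 and ITGA7 chains pair with ITGB1, and ITGA6 also with ITGB4, to bind laminins. ITGA1, ITGA2, ITGA10 and ITGA11 chains pair with ITGB1 to bind collagens. ITGA5 with ITGB1, and ITGAV with several β chains, bind the RGD motif of fibronectin, vitronectin and latent TGF-β. In skeletal muscle, the LAMA2 chain of the muscle basement membrane is bound by the ITGA7 and ITGB1 pair and by dystroglycan.

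All samples are Rh30, a long-established cell line. It comes from an alveolar rhabdomyosarcoma, a tumour of the skeletal muscle lineage, and makes the fusion protein PAX3-FOXO1. There are 30 samples in 15 groups of 2. Groups 1 to 5, all labelled as DMSO treated, are the parental line and 4 single clones with PAX3-FOXO1-FKBP, numbered 4, 10, 11 and 12. The other 10 groups are a FOXO1-FKBP line and a PAX3-FOXO1-FKBP line, each in DMSO or in 500 nM dTAG for 2, 6, 24 or 72 h. FKBP is a degradation tag, and dTAG directs the tagged protein to the proteasome, so the transcript of the target does not show whether the protein was lost. Cells were grown in RPMI-1640 with FetalPlex. The labels do not say whether the 2 samples of a group were separate cultures, so each p-value rests on a spread that may be technical only. The sources used here do not tie the line of the time course to any of the 4 numbered clones.

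Total counts were 17746684 to 26834005 in the 10 clone-table libraries and 25863451 to 30466960 in the 10 time-course columns. Each time-course column pools its 2 samples, so a time course has no replicates. Of 10 myogenic markers, 9 reached 10 counts in every column. The 2 libraries of clone 4 stood furthest apart: chi-square per degree of freedom over genes was 55.1 there, 21.5, 32.4 and 15.0 in clones 10, 11 and 12, and 1.88 between the parental libraries. The log2 ratio of second to first library followed transcript length across genes in clones 4, 10 and 11 (Spearman's rho -0.673, -0.489 and -0.301). It followed GC content in clone 11 (0.662). Values for length and GC were -0.0860 and -0.0119 in parental cells and -0.0703 and -0.241 in clone 12. Median transcript length was 5269 bases for the described genes and 3423 for all genes tested in the clones. The cause of these gaps between libraries was not tested. Differences between each clone and the parental cells followed the GC content of the transcripts (Spearman's rho across genes 0.463 to 0.589), and genes are not independent replicates. Values corrected for GC content and transcript length are therefore given wherever they end a call, turn a direction or move a called value by over 1.5 times. Levels are CPM, counts scaled to a fixed total, on library sizes scaled by the trimmed mean of M values (TMM), within each table.

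The parental cells expressed a small set of these chains at high level. Compared per kilobase of transcript, ITGAV led the integrin α chains at 36.0 CPM per kb (mean of 2 libraries), followed by ITGA5 at 16.9, ITGA7 at 14.1, ITGA6 at 10.6 and ITGA4 at 4.07. ITGAE at 2.32, ITGA3 at 1.35, ITGA1 at 0.503 and ITGA2B at 0.340 followed. ITGA10, ITGA9 and ITGA2 lay at 0.115, 0.111 and 0.0944 CPM per kb with overlapping libraries, and ITGA11 at 0.020. ITGB1, the common partner of most of these α chains, was the highest β chain in every column and made up 40.3% to 70.7% of β transcripts counted per kb.

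Among the other β chains, ITGB5, the vitronectin receptor partner of ITGAV, stood at 27.1 CPM per kb in the parental cells, ahead of ITGB2 at 18.3, ITGB3 at 4.61, ITGB8 at 3.63, ITGB4 at 2.33 and ITGB6 at 0.246. ITGB2 is the β chain of leukocyte integrins, and its partners ITGAL, ITGAM, ITGAX and ITGAD stayed under 10 counts in all 10 clone-table libraries. Its CPM per library was 57.1 and 58.9 in parental cells, 66.1 and 70.4 (clone 4), 78.8 and 71.4 (clone 10), 42.5 and 69.0 (clone 11) and 92.8 and 148 (clone 12). Clone 12 held both of the highest libraries and clone 11 the lowest. Of a list of 10 pan-leukocyte markers, 3 to 6 reached 10 counts in each of those 10 libraries, with sums of 1521 (first clone 12 library) to 7250 (second clone 4 library), while its members PTPRC and LCP1 had at most 1 and 2 counts. The part of other cells in the ITGB2 level was not tested. An antisense gene, ITGB2-AS1, covers 303 of the 6797 exon bases of ITGB2, and the sources used here do not give whether counting used strand.

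Laminin chains were similarly uneven. LAMC1, the γ chain of most laminins, stood at 29.9 CPM per kb, and LAMB1 made up 54.9% to 74.2% of β transcripts. Of the α chains, LAMA5 was highest in parental cells at 11.4 CPM per kb. LAMA2 at 3.93 and LAMA1 at 3.77 had overlapping libraries, and LAMA4 lay at 2.99. The β chains LAMB2 and LAMB3 stood at 9.0 and 4.01 CPM per kb.

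**Figure D1:**
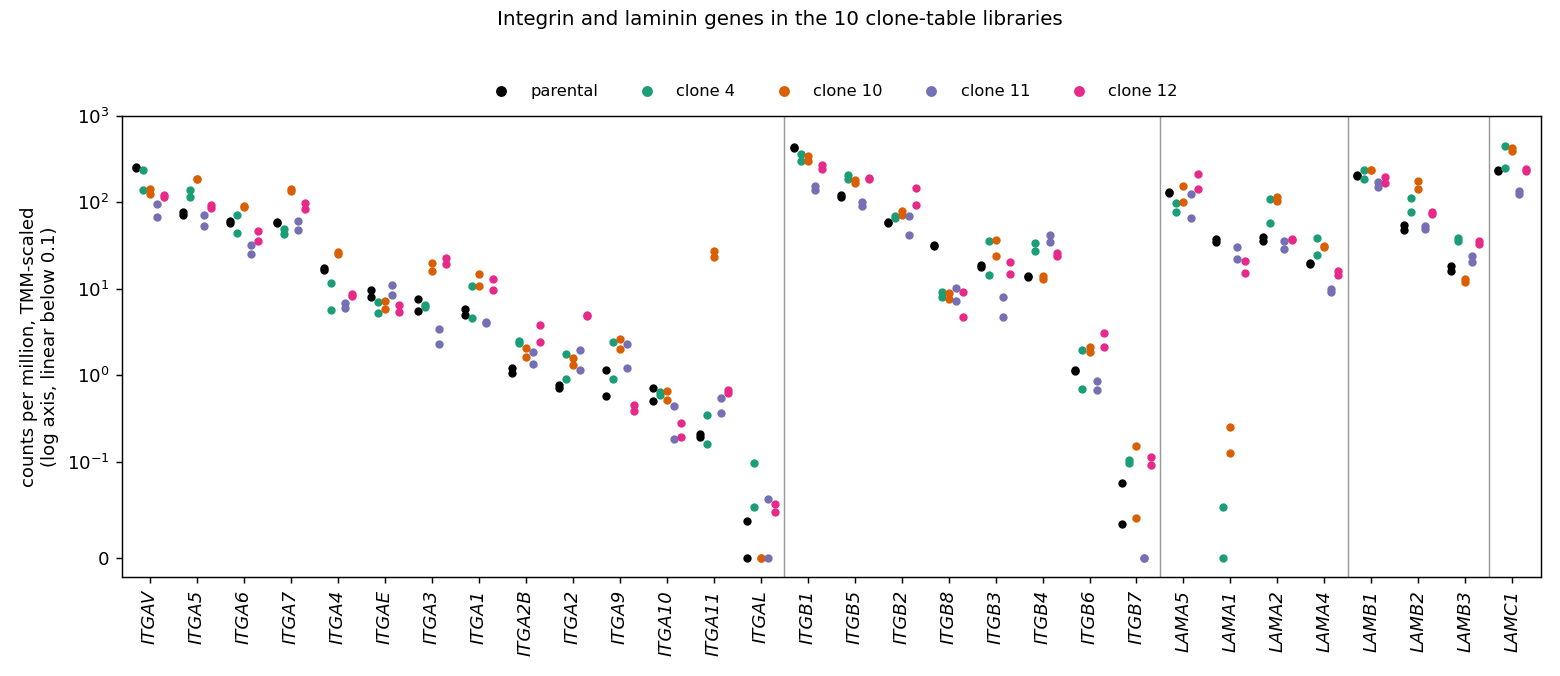
CPM of the described genes with 1 left out (x axis, grouped by chain family and ordered by parental level) in each of the 10 clone-table libraries, on a log axis that is linear below 0.1; each point is 1 library and colours give the 5 groups. ITGA11 stands apart in clone 10, at 23.7 and 27.2 CPM against at most 0.675 in the other 8 libraries, and LAMA1 is near 0 in clones 4 and 10.

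The first comparison asks how the tagged clones differ from the parental line. LAMA1 was almost absent from clones 4 and 10, ITGA11 was high in clone 10, and ITGB8 was lower in all 4 clones. With edgeR's quasi-likelihood test and Benjamini-Hochberg adjustment at 0.05, 27 of the 29 tested members were called for any difference, or 93.1%, beside 83.1% of all 14175 tested genes. ITGA10, at most 0.707 CPM in every clone-table library, was not called. ITGAL and ITGB7 were too low to test. The 4 clone contrasts share the 2 parental libraries.

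In clone 4, 9 of 29 members were higher and 3 lower than in parental cells, where 25.1% of all genes were higher and 22.3% lower (47.4% in all). Clone 10 had 14 higher and 4 lower, where 27.8% and 24.2% of all genes were (52% in all). Clone 11 had 3 higher and 9 lower, where 26.5% and 25.1% of all genes were (51.6% in all). Clone 12 had 12 higher and 5 lower, where 27.8% and 24.7% of all genes were (52.6% in all). Both directions occurred for 6 members (ITGA3, ITGA4, ITGA6, LAMA4, LAMB3 and LAMC1), and for 7.24% of all genes. Of these members, only ITGA3 kept both directions whichever single library was left out. The median log2 change of the 29 members was 0.39, 0.69, -0.34 and 0.33 in clones 4, 10, 11 and 12, beside medians of all genes of 0.05, 0.05, -0.00484 and 0.03. Of the 59 calls, 39 remained whichever single library was left out, 50 remained after the GC and length correction, 50 with library totals in place of TMM, and 35 remained under every alternative tried.

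LAMA1, the α chain of the embryonic laminin-111 trimer, showed the largest loss. It had 962 and 999 counts in the parental libraries, 0 and 1 (clone 4), 3 and 5 (clone 10), 548 and 500 (clone 11) and 269 and 436 (clone 12). Clones 4 and 10 lay far below every other library, and clones 11 and 12 lay below both parental libraries. The parental level was 1416 times that of clone 4, which rests on 1 count (95% counting interval 254 to 55963), and 197 times that of clone 10, which rests on 8 counts (99.9 to 458). Both differences were called (adjusted p 7.4e-07 and 9.2e-07), and these intervals cover counting error only. In clone 12, LAMA1 fell by 0.94 (SE 0.22, adjusted p 0.0044) on the log2 scale, while the log2 difference of -0.39 in clone 11 was not called (adjusted p 0.15). With library totals in place of TMM the clone 11 difference was -0.62 and called. The antisense gene AP002409.1 covers 1641 of the 15872 exon bases of LAMA1.

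LAMA2, the chain of adult muscle laminin, was higher in the clones with almost no LAMA1. Its CPM was 36.3 and 40.0 in parental cells, 109 and 57.9 (clone 4), 115 and 104 (clone 10), 28.9 and 35.6 (clone 11) and 37.4 and 37.0 (clone 12). All 4 libraries of clones 4 and 10 lay above the other 6. The log2 change was 1.20 (SE 0.24, adjusted p 0.0022) in clone 4 and 1.60 (SE 0.24, adjusted p 0.00041) in clone 10. The log2 differences of -0.17 and 0.03 in clones 11 and 12 were not called.

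LAMA4, an α chain of vascular and muscle basement membranes, had a CPM of 19.7 and 19.4 in parental cells, 38.9 and 24.8 (clone 4), 30.2 and 31.5 (clone 10), 9.10 and 9.95 (clone 11) and 16.3 and 14.5 (clone 12). Clones 4 and 10 lay above the parental libraries, clones 11 and 12 below. It was called in clone 11 (log2 -0.97, SE 0.21, adjusted p 0.0027). The calls in clones 4 and 10 (log2 0.77 and 0.73) ended when 1 library was left out: without the first clone 4 library the change was 0.36, without the second parental library 0.74 and 0.70, and clone 10's was 0.75 without the first parental library and 0.65 without the second clone 10 library.

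As shares of all laminin α transcripts per kb, LAMA1 made up 17.5% and 16.6% in parental cells, and LAMA2 made up 36.2% to 43.9% in the 4 libraries of clones 4 and 10. LAMA5, the most widely made α chain, was the largest share in all clone-table libraries except the first of clone 4 and the second of clone 10, where LAMA2 was. It was called in no single clone, with log2 differences of -0.49, 0.06, -0.39 and 0.51. After the GC and length correction LAMA5 was called lower in clones 4, 10 and 11 (log2 -1.06, -0.79 and -0.79). At 66.4% GC it has the highest GC content of the 31 genes.

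**Figure D2:**
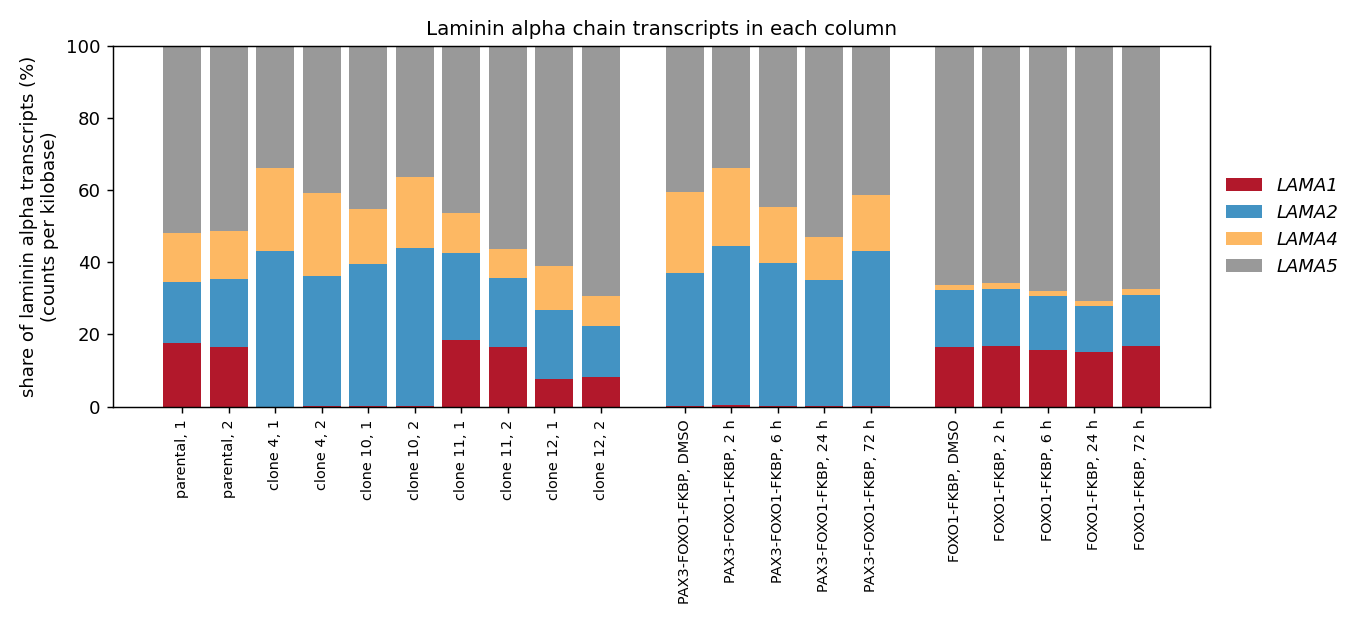
Share of laminin α chain transcripts, counted per kilobase (y axis, %), in each of the 10 clone-table libraries and the 10 pooled time-course columns (x axis); each bar is 1 library or column. LAMA1 makes up 7.76% to 18.6% in parental cells, clones 11 and 12 and the FOXO1-FKBP line, and at most 0.356% in clones 4 and 10 and the PAX3-FOXO1-FKBP line.

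Of the laminin β chains, LAMB2, the chain found at the neuromuscular junction, was higher in clones 4, 10 and 12. Its CPM was 47.5 and 54.6 in parental cells, 113 and 77.7 (clone 4), 178 and 144 (clone 10), 48.8 and 53.9 (clone 11) and 77.7 and 73.9 (clone 12). Clone 10 was highest, and clone 11 overlapped the parental libraries. The log2 changes were 0.97 (SE 0.18), 1.73 (SE 0.18) and 0.63 (SE 0.18) in clones 4, 10 and 12 (adjusted p 0.0015, 6.9e-05 and 0.013), and fell to 0.50, 1.05 and 0.26 after the GC and length correction, where clone 12 was no longer called. The clone 12 call also ended without the first parental library (0.55) and without either clone 12 library (0.54 and 0.61).

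LAMB3, a chain of epithelial laminin, had a CPM of 15.9 and 18.6 in parental cells, 36.1 and 38.6 (clone 4), 12 and 12.9 (clone 10), 20.7 and 24.2 (clone 11) and 35.5 and 33.2 (clone 12). Clones 4 and 12 lay above all other libraries and clone 10 below them. The log2 change was 1.18 (SE 0.15, adjusted p 0.000185) in clone 4 and 1.06 (SE 0.15, adjusted p 0.000285) in clone 12, or 0.76 and 0.65 after the GC and length correction. Smaller calls in clone 10 (log2 -0.40) and clone 11 (0.45) ended when 1 library was left out, with values of -0.30 to -0.49 and 0.27 to 0.55, and the GC and length correction moved them to -0.98 and 0.04. LAMB1 was called in no single clone (log2 -0.27 to 0.30), although the test over all groups called it.

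LAMC1 was called higher in clones 4 and 10 (log2 0.64 and 0.86) and lower in clone 11 (-0.79), from 239 and 232 CPM in parental cells. In the clones it stood at 445 and 253 CPM (clone 4), 427 and 388 (clone 10), 124 and 136 (clone 11) and 246 and 230 (clone 12). The 2 libraries of clone 4 differed most, and without the first of them its log2 change was 0.13 and not called. In clone 4 the call also ended without any 1 library of the parental cells (0.67 and 0.60) or of clones 11 and 12 (0.57), and in clone 11 without the first parental library (-0.75). The corrected change in clones 4 and 10 was 0.41 and 0.50.

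The collagen receptor ITGA11 gave the largest rise. Counts were 5 and 6 in the parental libraries, 7 and 3 (clone 4), 566 and 530 (clone 10), 9 and 9 (clone 11) and 11 and 14 (clone 12). Clone 10 lay far above all others, and clones 11 and 12 above both parental libraries at a low level. The log2 difference of 1.18 in clone 11 was not called (edgeR adjusted p 0.054) and became a call of 1.31 after the GC and length correction. Clone 10 was 124 times the parental level (95% counting interval 68.9 to 249, adjusted p 4.5e-07), and clone 12 was 3.19 times (1.52 to 7.19, adjusted p 0.0065). Summed counts of 8 fibroblast markers were 25535 and 21626 in clone 10 and 1187 to 3555 in the other 8 libraries. Of the clone 10 sums, 22755 and 19044 counts came from the collagen gene COL3A1. THY1 had 1194 and 1347 counts there (1 and 6 in parental cells) and COL1A1 1328 and 1071 (374 and 388 in parental cells), while DCN, LUM and PDPN had at most 7. PDGFRA was lower, at 230 and 129 counts against 373 and 421 in parental cells, and COL1A2 had 17 and 25 against 22 and 29. THY1 and COL1A1 were not high in clone 10 alone. Clone 12 had 1004 and 1061 counts of THY1 and 2155 and 1912 of COL1A1, and clone 4 had 501 and 647 of THY1. The part of other cells in the ITGA11 difference was not tested.

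The sequence before the ITGA11 start is shown because no member had a larger fold increase, and no other GENCODE v29 exon overlaps this window. It is the RefSeq promoter table's 250 bases before the start (GRCh38.p14, chr15:68432164-68432413, minus strand, 71.2% GC, 23 CpG), printed 5′ to 3′ with E-boxes (CANNTG, both strands) in capitals. 
ITGA11: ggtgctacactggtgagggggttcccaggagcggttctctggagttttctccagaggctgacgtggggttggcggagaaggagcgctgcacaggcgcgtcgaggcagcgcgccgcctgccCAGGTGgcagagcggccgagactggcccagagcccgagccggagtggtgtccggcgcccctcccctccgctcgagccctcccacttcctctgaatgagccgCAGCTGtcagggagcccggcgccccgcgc
E-boxes are the motif bound by myogenic factors such as MYOD1. The window holds 2, beginning 130 and 29 bases before the start, and 61.8% of 35116 promoter windows of this length hold 1 or more. The homeodomain core TAATTA and the forkhead core GTAAACA, the kinds of motif bound by the PAX3 and FOXO1 families, are not in this window, and 4.35% and 2.98% of windows hold them. The promoter table held 22 of the 31 genes, and these letters are a description of the window only.

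Other collagen receptors were low. ITGA1 was called higher in clones 10 and 12 (log2 1.33 and 1.15), from 5.84 and 4.99 CPM in parental cells to 15.0 and 10.8 in clone 10 and 13.2 and 9.83 in clone 12. Those calls ended without the second parental library (1.20 and 1.02), without the first library of clone 10 (1.07) and without the first library of clone 12 (0.87), and corrected changes were 1.74 and 1.92. ITGA2 was at 0.779 and 0.707 CPM in parental cells and 4.92 and 5.01 in clone 12, a log2 change of 2.80 (SE 0.37, adjusted p 0.00022, corrected 3.42). Its smaller calls in clones 10 and 11 (log2 1.05 and 1.1) ended without either parental library, with values of 0.96 to 1.19. They also ended when other single libraries were left out, down to 0.63 for clone 11 without its second library, and the corrected change in clone 11 was 1.80. ITGA10 ranged from 0.184 to 0.707 CPM, and its uncalled log2 difference of -1.29 in clone 12 became a call of -1.50 after correction.

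Among the laminin receptors, ITGA3 moved in both directions. Its CPM was 7.63 and 5.52 in parental cells, 6.19 and 6.61 (clone 4), 16.2 and 19.7 (clone 10), 2.33 and 3.44 (clone 11) and 22.5 and 19.3 (clone 12). Clones 10 and 12 lay above and clone 11 below every parental library, while clone 4 overlapped them. The log2 change was 1.52 (SE 0.22, adjusted p 0.00038) in clone 10, 1.73 (SE 0.23, adjusted p 2.0e-04) in clone 12 and -1.14 (SE 0.25, adjusted p 0.0032) in clone 11. The corrected change in clone 10 was 0.88.

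ITGA7, the main laminin receptor α chain of mature muscle, was higher in clones 10 and 12. Its CPM was 57.2 and 59.2 in parental cells, 43.6 and 49.8 (clone 4), 136 and 144 (clone 10), 47.4 and 60.6 (clone 11) and 84.0 and 99.6 (clone 12). Only clones 10 and 12 exceeded both parental libraries in both of their own. The log2 changes were 1.34 (SE 0.15, adjusted p 9.5e-05) and 0.72 (SE 0.15, adjusted p 0.0024), or 0.75 and an uncalled 0.29 after the GC and length correction. In clone 4 the log2 difference of -0.25 became a call of -0.68 with that correction, and in clone 11 a difference of -0.04 became a call of -0.49.

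ITGA6 had a CPM of 61.8 and 57.8 in parental cells, 71.4 and 44.8 (clone 4), 89.9 and 88.0 (clone 10), 31.9 and 25.6 (clone 11) and 36.2 and 47.3 (clone 12). It was called lower in clone 11 (log2 -0.98, SE 0.22, adjusted p 0.0035, corrected -0.52). The call in clone 10 (0.65) ended when either parental or either clone 10 library was left out (0.58 to 0.71).

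ITGB4, the hemidesmosome β chain that pairs with ITGA6, was higher in clones 4, 11 and 12. Its CPM was 13.9 and 13.6 in parental cells, 27.4 and 34.3 (clone 4), 14.2 and 12.9 (clone 10), 34.6 and 41.7 (clone 11) and 26.3 and 24.0 (clone 12). Clone 10 overlapped the parental libraries and all 6 others lay above them. The log2 changes were 1.23, 1.54 and 0.93 (SE 0.16 in each, adjusted p 0.00025, 0.00011 and 0.00093), and 0.76, 1.13 and 0.55 after correction. In clone 10 the correction turned a difference of 0.05 into a call of -0.67. Summed counts of 8 epithelial markers were 2440 and 2876 for clone 4, 1248 and 1026 for clone 10, and 68 to 192 for the other 6 libraries. In clones 4 and 10 they were mostly KRT8 and KRT18, while KRT5 was at 0 and CDH1 at most 2 in all 10 libraries. Their part in the ITGB4 and LAMB3 values was not tested.

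**Figure D3:**
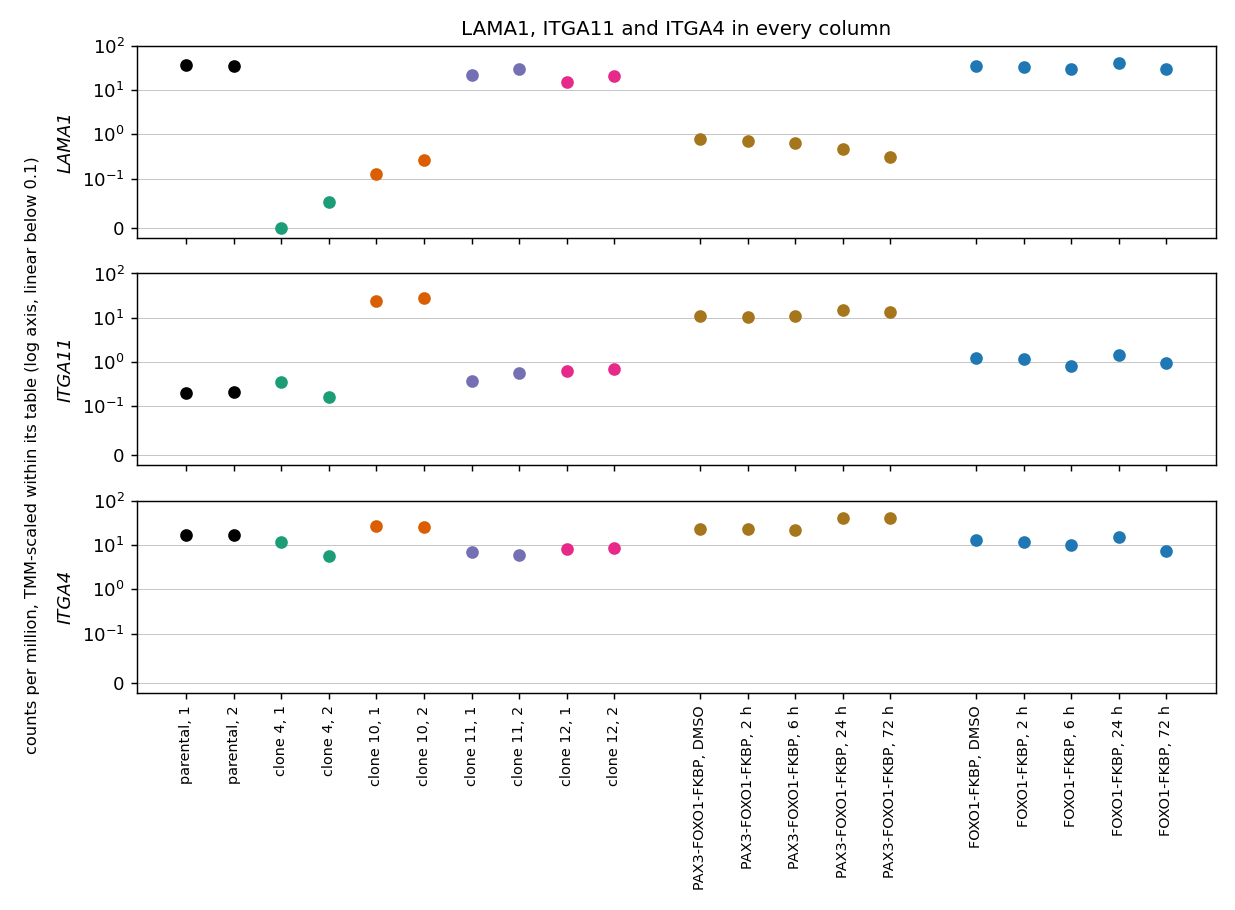
CPM of LAMA1, ITGA11 and ITGA4 (y axes, log scale that is linear below 0.1) in the 10 clone-table libraries and the 10 pooled time-course columns (x axis); each point is 1 library or column, scaled within its own table. LAMA1 is low and ITGA11 high in clone 10 and in the whole PAX3-FOXO1-FKBP line, DMSO included.

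ITGB8, a partner of ITGAV that activates latent TGF-β, was the single member called lower in all 4 clones, against 9.5% of all genes. Its CPM was 31.3 and 32.1 in parental cells, 9.11 and 8.15 (clone 4), 9.07 and 7.59 (clone 10), 10.3 and 7.18 (clone 11) and 4.75 and 9.30 (clone 12). All 8 clone libraries lay below both parental ones. The log2 changes were -1.81, -1.85, -1.77 and -2.10 in clones 4, 10, 11 and 12 (SE 0.27 to 0.28, adjusted p 0.00022 to 5.0e-04). After the GC and length correction they were -1.26, -1.33, -0.93 and -1.29, all still called. The ITGB8 transcript has the lowest GC content of the described genes, 37.8%. No member was higher in all 4 clones, where 8.4% of all genes were.

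ITGB1 had a CPM of 423 and 434 in parental cells, 362 and 305 (clone 4), 301 and 343 (clone 10), 155 and 140 (clone 11) and 240 and 273 (clone 12). All 8 clone libraries lay below the parental ones, and clone 11 lay lowest. It was called in clone 11 (log2 -1.47, SE 0.14, adjusted p 9.0e-05) and clone 12 (-0.68, SE 0.14, adjusted p 0.0024). After the GC and length correction the changes were -0.93 and an uncalled -0.16, and the uncalled differences in clones 4 and 10 turned from -0.29 and -0.34 to 0.16 and 0.18. Clone 10 was also called with RLE scaling, DESeq2 or no filter on low counts (-0.39, -0.39 and -0.41) and without any 1 library of clones 4, 11 and 12 (-0.39 to -0.41). Clone 4 was called without its first library (-0.47), and both were called with library totals in place of TMM (-0.46 each).

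ITGAV, an RGD-binding α chain, had a CPM of 248 and 258 in parental cells, 240 and 138 (clone 4), 143 and 127 (clone 10), 96.4 and 68.7 (clone 11) and 124 and 117 (clone 12). It was called lower in clones 10, 11 and 12 (log2 -0.83, -1.54 and -1.01), and the correction left -0.31, -0.74 and -0.25, of which the clone 11 value was called. Without the second clone 10 library that clone's change was -0.79 and not called. Both ITGAV and ITGB1 have transcripts of low GC content, 38.2% and 40.0%.

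ITGA5, the fibronectin receptor α chain, was higher in clones 4 and 10. Its CPM was 71.4 and 78.5 in parental cells, 140 and 114 (clone 4), 186 and 185 (clone 10), 53.3 and 72.3 (clone 11) and 86.4 and 93.5 (clone 12). Clones 4, 10 and 12 lay above the parental libraries. The log2 change was 0.83 (SE 0.16, adjusted p 0.0019) and 1.38 (SE 0.16, adjusted p 0.00011) in clones 4 and 10, or 0.40 and 0.80 after correction, and the uncalled 0.33 of clone 12 turned to -0.07. In clone 11 the correction turned an uncalled -0.19 into a call of -0.58.

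ITGB5 had a CPM of 116 and 120 in parental cells, 188 and 208 (clone 4), 181 and 169 (clone 10), 91.2 and 101 (clone 11) and 188 and 192 (clone 12). Every library of clones 4, 10 and 12 lay above, and both of clone 11 below, the parental ones. The log2 changes of 0.81, 0.64 and 0.75 in clones 4, 10 and 12 were called (SE 0.12 in each, adjusted p 0.000446 to 0.00138). The corrected values were 0.47, an uncalled 0.15, and 0.46, and the uncalled -0.23 of clone 11 became a call of -0.47.

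ITGA4, which binds VCAM1 and fibronectin, had a CPM of 17.5 and 16.6 in parental cells, 11.7 and 5.70 (clone 4), 27.1 and 25.3 (clone 10), 6.90 and 6.08 (clone 11) and 8.26 and 8.63 (clone 12). It was called lower in clones 4, 11 and 12 (log2 -0.89, -1.32 and -0.95) and higher in clone 10 (0.69). The clone 4 call ended without either parental library (-0.84 and -0.95), the clone 12 call without the first parental (-0.90) or first clone 12 library (-0.98), and the clone 10 call without any 1 library of the parental cells or of clones 10, 11 and 12 (0.62 to 0.74).

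The remaining integrin chains were called in at most 2 clones. ITGB2 was called higher in clone 12 (log2 1.12, SE 0.23, adjusted p 0.0026, corrected 0.64). ITGB3, a platelet and vitronectin receptor chain, stood at 18.9 and 18.0 CPM in parental cells, 35.5 and 14.5 (clone 4), 36.5 and 24.1 (clone 10), 4.78 and 8.04 (clone 11) and 20.7 and 14.8 (clone 12). It was called lower in clone 11 (-1.47), and this ended without the first clone 11 library (-1.19). The readthrough gene AC068234.1 shares 2266 of the 4394 exon bases of ITGB3. ITGA2B, the platelet partner of ITGB3, was called higher in clones 4 and 12 (1.17 and 1.53). Its CPM was 1.21 and 1.06 in parental cells, 2.38 and 2.50 (clone 4), 2.09 and 1.64 (clone 10), 1.35 and 1.84 (clone 11) and 2.43 and 3.81 (clone 12). The clone 4 call ended without either parental library (1.28 and 1.06) and after correction (0.73). The corrected clone 12 change was 1.04. ITGB6 was called in clone 12 (1.24) and ITGA9 in clone 10 (1.47). ITGA9 had a CPM of 0.584 and 1.17 in parental cells, 2.43 and 0.906 (clone 4), 2.63 and 2.00 (clone 10), 1.22 and 2.33 (clone 11) and 0.453 and 0.386 (clone 12). The ITGB6 call ended without either parental library (1.28 and 1.20) or the first clone 12 library (0.89), and the corrected change was 1.79. The ITGA9 call ended without the first parental library (1.08) or either clone 10 library (1.26 and 1.60) and after correction (1.08). ITGAE, at 5.25 to 11.1 CPM, was called in no single clone with TMM scaling and was called lower in clones 4, 10 and 12 after correction (log2 -0.83, -0.85 and -0.87).

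**Figure D4:**
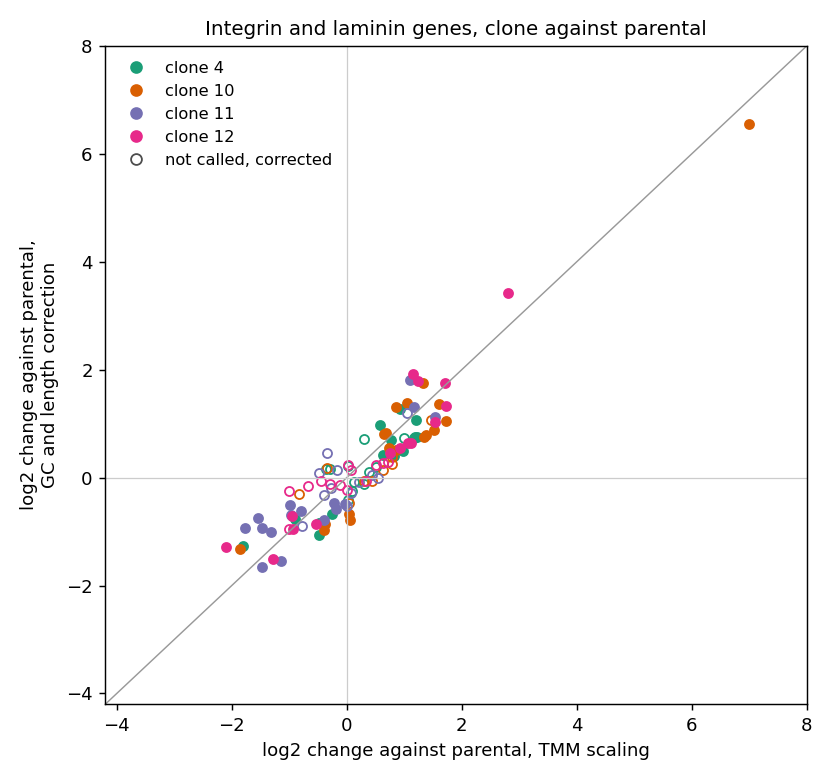
Log2 change of the tested integrin and laminin genes, with 1 left out, against parental cells with TMM scaling (x axis) and with the GC and length correction (y axis), 1 point per gene and clone, coloured by clone; open points were not called after correction and the line marks equal values. LAMA1 in clones 4 and 10 lies off the plot to the left; the ITGA11 point of clone 10 lies at 6.99 and 6.56.

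The second comparison asks how these genes changed over time when the tagged PAX3-FOXO1 was degraded, with the FOXO1-FKBP line as a second tagged line. In the PAX3-FOXO1-FKBP line ITGB8, ITGA5 and ITGA9 fell and ITGA4 rose over 72 h, while no member passed the test in the FOXO1-FKBP line. A trend was a slope of expression on log2(hours + 1), fitted with edgeR over the 5 pooled columns of a line. Its p measures scatter around a straight line, not replicate error, and all times share the DMSO column. In the PAX3-FOXO1-FKBP line 1 of 29 members was called as rising and 3 as falling, where 2.41% of all 14253 genes rose and 2.13% fell (4.55% in all). In the FOXO1-FKBP line 0 of 28 were called, and 0 at an unadjusted p under 0.05, where 0 of 13858 genes were called and 4.61% had an unadjusted p under 0.05. DESeq2 called 1 gene there and no member. Without the 24 h column, ITGA1, ITGA4, ITGA6, ITGB1, ITGB3 and LAMC1 were called in that line, where 1189 of 13807 genes were.

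ITGB8 stood at 26.7 CPM in DMSO and at 14.7, 12.6, 11.8 and 11 after 2, 6, 24 and 72 h of dTAG. It was lower at every time, and most of the fall was present at 2 h. The log2 differences from DMSO were -0.86, -1.08, -1.17 and -1.28 (trend adjusted p 0.046). In the FOXO1-FKBP line ITGB8 stood at 21.5, 20.3, 17.4, 19.7 and 17.1 CPM, log2 differences of -0.09 to -0.33. The trend call ended after the GC and length correction (slope -0.18 per doubling, adjusted p 0.0501) and without the DMSO, 6 h or 72 h column (slope -0.08, -0.19 and -0.25). The tagged clones in DMSO were at 4.75 to 10.3 CPM in the clone table, below the 26.7 CPM of this tagged line in DMSO. Parental cells were at 31.3 and 32.1 CPM there, and the clone table was scaled separately.

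ITGA5 went from 116 CPM in DMSO to 103, 83.1, 79.0 and 69.3 at 2, 6, 24 and 72 h, each time lower than the time before. The log2 difference at 72 h was -0.74 (trend adjusted p 0.026). With tagged FOXO1 it was 68.4, 60.3, 63.2, 80.5 and 58.6 CPM, with no steady course. The call ended without the DMSO, 2 h, 6 h or 72 h column, while the slope stayed between -0.11 and -0.13.

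ITGA9, which binds tenascin and VCAM1, was low and fell furthest. It had 96.1 estimated counts in DMSO, and CPM fell from 3.16 to 1.60, 0.754, 0.893 and 0.302. The log2 difference at 72 h was -3.12 (trend adjusted p 0.015). The FOXO1-FKBP columns gave 2.22, 2.08, 1.79, 1.98 and 1.41 CPM. The difference in slope between the lines was -0.39 per doubling (adjusted p 0.053), which DESeq2 and the GC and length correction called. The trend call ended without the DMSO or 72 h column (slope -0.40 and -0.44). ITGA9-AS1 covers 535 of the 8277 exon bases of ITGA9.

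ITGA4 was 22.8 CPM in DMSO, 23.5 and 22.2 at 2 and 6 h, and 41.7 and 42.1 at 24 and 72 h, so the rise fell between 6 and 24 h. The log2 differences at 24 and 72 h were 0.87 and 0.88 (trend adjusted p 0.044). In the FOXO1-FKBP line it was 13.0, 11.6, 10.1, 15.3 and 7.34 CPM, lowest at 72 h (log2 -0.82). The call ended with library totals (slope 0.16) and without the DMSO, 2 h or 72 h column (0.23, 0.17 and 0.18).

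**Figure D5:**
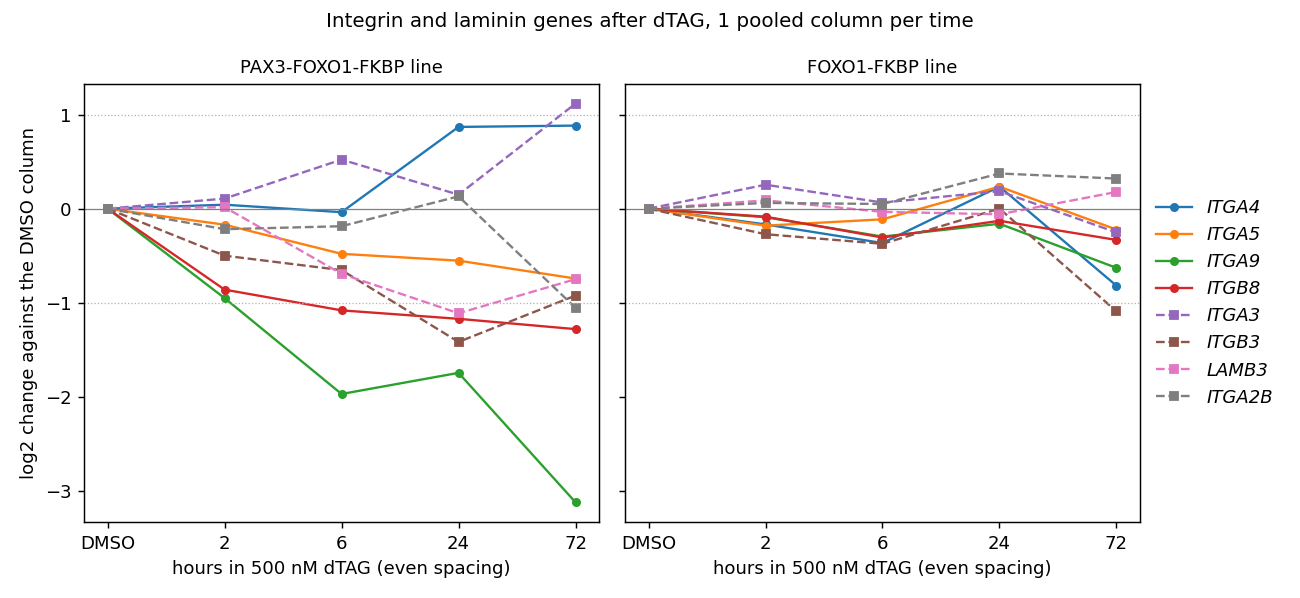
Log2 change against the DMSO column (y axis) after 2, 6, 24 and 72 h of dTAG (x axis, evenly spaced) in the PAX3-FOXO1-FKBP line (left) and the FOXO1-FKBP line (right), 1 pooled column per point and no replicates. Solid lines are the 4 genes with a called trend, dashed lines the genes past 2-fold at 1 or more times, and dotted lines mark 2-fold. ITGB8 is at -0.86 or lower at every time on the left and at -0.33 or higher on the right.

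By size alone, members were counted where a pooled column differed at least 2-fold from DMSO at a mean of 50 normalised counts or more, with no test. In the PAX3-FOXO1-FKBP line 23 members passed the level filter. Those below it included ITGA9 (mean 39.2), at log2 -1.97, -1.75 and -3.12 at 6, 24 and 72 h, and LAMA1 (mean 17.1), at -1.22 at 72 h. None of the 23 was past 2-fold at 2 h, where 0.373% of all genes were higher and 0.284% lower. ITGB8 was lower at 6 h (1.23% of all genes, with 0.608% higher), ITGB8, ITGB3 and LAMB3 were lower at 24 h (1.73%, with 1.38% higher), and at 72 h ITGB8 and ITGA2B were lower (3.05%) and ITGA3 was higher (3.41%). In the FOXO1-FKBP line ITGB3 alone of 24 members was past 2-fold, lower at 72 h (0.392% of all genes, with 0.0501% higher). None of the 24 was past 2-fold there at 2, 6 or 24 h, where 0.0334%, 0.0334% and 0.108% of all genes were higher and 0.0417%, 0.025% and 0.1% lower.

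ITGB3 was 26.8, 19.0, 17.0, 10.0 and 14.1 CPM in the PAX3-FOXO1-FKBP line and 5.56, 4.59, 4.27, 5.56 and 2.57 in the FOXO1-FKBP line. Its lowest value came at 24 h in the first (log2 -1.42) and at 72 h in the second (-1.09). Changes in that 72 h column followed transcript length (rho -0.511) and GC content (0.496) across genes. LAMB3 was 8.50, 8.60, 5.23, 3.89 and 5.03 CPM in the PAX3-FOXO1-FKBP line (log2 -1.11 at 24 h) and 12.3, 13, 12, 11.8 and 13.9 in the FOXO1-FKBP line.

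ITGA3 was 7.82, 8.43, 11.3, 8.67 and 17.1 CPM in the PAX3-FOXO1-FKBP line, highest at 72 h (log2 1.12), and 5.57, 6.66, 5.83, 6.35 and 4.66 in the FOXO1-FKBP line. ITGA2B was 2.52, 2.16, 2.21, 2.77 and 1.18 CPM in the PAX3-FOXO1-FKBP line (log2 -1.05 at 72 h), and 1.2, 1.26, 1.25, 1.58 and 1.52 in the FOXO1-FKBP line. Its 72 h difference was no longer past 2-fold after the GC and length correction. LAMA4 was 40.2, 28.7, 22.6, 22.8 and 26.9 CPM in the PAX3-FOXO1-FKBP line, lower at every time without passing 2-fold, and 2.18, 2.51, 1.87, 2.51 and 1.87 in the FOXO1-FKBP line.

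No member was called for a difference in trend between the lines with edgeR, where 2.02% of 14490 genes were (1.12% with a higher and 0.904% with a lower slope in the PAX3-FOXO1-FKBP line). An unadjusted p under 0.05 in that test was reached by 8 of 29 members and by 12.6% of all genes. The log2 changes of the lines differed by 2-fold or more at 24 h for ITGB3, ITGB8, LAMA4 and LAMB3 of 21 members (2.86% of all genes, after 0.654% and 1.33% at 2 and 6 h, with no member), and at 72 h for ITGA3 and ITGA4 (4.97%). At 72 h ITGA4 was 0.88 in one line and -0.82 in the other.

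Of the members with the lowest p among the clones, ITGB1, ITGA7, LAMB2, ITGB4 and ITGB5 are given in every column of both lines, in the order DMSO, 2, 6, 24 and 72 h. ITGB1 was 465, 493, 494, 434 and 503 CPM with tagged PAX3-FOXO1 and 350, 337, 322, 328 and 286 with tagged FOXO1. ITGA7 was 99.1, 93.9, 114, 111 and 129 CPM in the first and 78.4, 82.6, 77.4, 94.3 and 91.9 in the second. LAMB2 was 149, 119, 120, 126 and 128 CPM and then 59.1, 59.7, 59.1, 70.4 and 65.0. None of these was past 2-fold of its DMSO column. ITGB4 was 9.71, 9.47, 9.39, 10.9 and 7.72 CPM in the first line and 14.4, 16.6, 12.4, 14.7 and 17.2 in the second. ITGB5 was 126, 126, 135, 121 and 91.2 CPM and then 107, 107, 102, 115 and 102. Both stayed within 2-fold of DMSO in each line.

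The remaining members were not called in the PAX3-FOXO1-FKBP line. ITGAV (192 to 222 CPM), ITGA6 (83.9 to 124), LAMB1 (214 to 238), LAMC1 (274 to 374) and LAMA2 (86.1 to 111) were within 2-fold of DMSO throughout and not called. ITGB2 ranged from 66.4 to 132 CPM, LAMA5 from 78.9 to 177, ITGA1 from 12.9 to 19.2, ITGA11 from 10.3 to 15.1 and ITGAE from 8.25 to 10.2, also uncalled. ITGA2, ITGA10, ITGB6 and LAMA1 were at most 1.97 CPM.

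LAMA1 and ITGA11 differed between the lines already in DMSO, and so did other members. In DMSO, LAMA4 had 1173 normalised counts with tagged PAX3-FOXO1 and 57.6 with tagged FOXO1, scaled within each line. ITGB3 had 784 and 147, and ITGA2 had 36.9 and 134, in that order. Over DMSO, 2, 6, 24 and 72 h LAMA1 had 24.1, 21.4, 18.6, 13.5 and 8.49 estimated counts with tagged PAX3-FOXO1 and 913, 902, 759, 1097 and 809 with tagged FOXO1. ITGA11 had 337, 313, 311, 425 and 380 estimated counts in the first line and 32.8, 30.0, 20.9, 39.1 and 25.9 in the second. These are the directions seen in clone 10. The summed fibroblast markers were 20439 to 27665 estimated counts in the first line and 3282 to 4784 in the second, again mostly COL3A1. In DMSO, COL3A1, PDGFRA, THY1 and COL1A1 were higher in the first line, at 18957, 657, 975 and 302 against 4151, 82.4, 168 and 261. LUM, COL1A2 and DCN were lower there in DMSO, at 4.37, 12.4 and 1.68 against 57.8, 55.2 and 9.22. COL1A2 stayed lower at every time, while LUM and DCN were higher in the first line at 72 h. The part of other cells in the LAMA1 and ITGA11 differences was not tested.

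ITGAL and ITGB7 reached 10 counts in 1 column only, the 2 h column of the PAX3-FOXO1-FKBP line. ITGAL, the α chain of the leukocyte integrin LFA-1, had 1.26 estimated counts in DMSO, 28.0 at 2 h, 0 at 6 and 24 h and 2.08 at 72 h. ITGB7, a lymphocyte homing receptor chain, had 1.04, 11.1, 0.585, 3.40 and 2.64, and ZNF740 covers 1886 of its 4481 exon bases on the other strand. In that column all 12 B lineage markers reached 10 counts, against 2 to 4 in the other columns of the line, and their summed estimated counts were 4454 against 420 to 2921. PTPRC had 195 estimated counts there and at most 2.68 in the other 4 columns. Whether these reads came from other cells was not tested.

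Partner genes were read from 3 lists. Of 30 tested cytoplasmic and membrane partners of integrins, 4 had a called trend in the PAX3-FOXO1-FKBP line, where 4.55% of all genes had: TNS1 and ACTN2 rose, and TNS3 and CD9 fell. The α-actinin ACTN2 was 15.3 CPM in DMSO and 14.1, 15.8, 26.6 and 88.5 after 2, 6, 24 and 72 h (adjusted p 0.023). The tetraspanin CD9 was 76.0, 77.7, 57.4, 33.5 and 37.4 CPM (adjusted p 0.024). The tensins TNS1 and TNS3, which link integrins to actin, went from 41.3 to 67.3 and from 132 to 74.3 CPM between DMSO and 72 h (adjusted p 0.029 and 0.020).

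Of 18 tested basement membrane genes and integrin ligands other than laminins, 2 rose and 3 fell, where 2.41% of all genes rose and 2.13% fell. The collagen IV chains COL4A1 and COL4A2, which are made from a shared promoter region, fell together, from 376 to 161 and from 779 to 317 CPM (adjusted p 0.0060 and 0.012). Fibronectin, FN1, fell from 380 to 179 CPM (adjusted p 0.021). The matricellular genes TNC and THBS1 rose from 433 to 788 and from 70.6 to 121 CPM (adjusted p 0.010 and 0.039). Of 20 dystroglycan complex genes and other laminin receptors, SGCD and SSPN rose and UTRN fell, beside the same shares of all genes. The sarcoglycan SGCD was 14.4, 14.2, 21.3, 27.4 and 39.3 CPM (adjusted p 0.0053), sarcospan SSPN went from 15.0 to 38.9 (0.0092) and utrophin UTRN from 130 to 60.2 (0.015). No gene of the 3 lists was called in the FOXO1-FKBP line.

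Across the clones, called partners were 18, 24, 20 and 14 of 30 in clones 4, 10, 11 and 12, where 47.4%, 52%, 51.6% and 52.6% of all genes were called. Of these partners 16, 21, 16 and 13 were higher, where 25.1%, 27.8%, 26.5% and 27.8% of all genes were. Among them, TNS1 was 11.4 and 10.9 CPM in parental cells, 3.22 and 1.60 (clone 4), 87.8 and 75.4 (clone 10), 2.12 and 3.01 (clone 11) and 35.0 and 26.3 (clone 12) (adjusted p 6.5e-07 over all groups). FLNA, FYN and CD151 followed by p (adjusted p 0.00013, 0.00014 and 0.00017). Called ligands were 8, 13, 13 and 8 of 19, to be read against the same shares of all genes. The collagen IV chain COL4A5 had 261 and 313 counts in the parental libraries and 0 in all 8 clone libraries, and in the time-course tables it was listed at 0.419 in 1 column and at 0 in the other 9. COL15A1, THBS1 and NPNT were the other leading ligands (adjusted p 4.6e-07, 2.7e-05 and 5.7e-05). Of the 20 dystroglycan complex genes, 9, 11, 15 and 11 were called beside those shares, led by SGCD, DAG1, SGCA and ISPD (adjusted p 2.2e-05, 0.00011, 2.0e-04 and 0.00058).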

How the data were processed

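RNA was taken from Rh30 cells with TRIzol, per the labels' protocols, and hg19, Bowtie2, Trimmomatic 0.32 and Cuffdiff 2.1.1 appear in the submitters' processing notes. The sources used here do not give their roles, the annotation or the strand used in counting. The authors deposited whole counts for 10 clone libraries. The 2 time-course tables hold estimated counts that the authors deposited as 1 pooled column per condition, whether sum or mean is not stated. Estimated counts were rounded for the count models. The tests were first run on simulated data. The members and gene lists were chosen with earlier results of these data known. Genes were tested with edgeR 4.0.16 (quasi-likelihood, TMM, minimum count 10) in R 4.3.3, with Benjamini-Hochberg adjustment at 0.05. Alternatives were DESeq2 1.42.0, other scalings and filters, a GC and length correction, and each library or column left out. Members are named, except 1 that is not reported here, with values in every column for those with a called trend, those past 2-fold at any time and the 12 with the lowest p among the clone-table groups. Of each list, up to 4 called genes with the lowest p on each of the 2 tests are named. Lengths and GC came from GENCODE v29 by symbol, found for 88.8% of tested genes. Clone 12 columns were matched to the group only, because their numbers differ from the titles. Intervals cover counting error only.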

Additional observations from a re-analysis of the deposited data

Results flagged for a closer look

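Among integrin and laminin genes, 6 were called higher than parental cells in 1 or more clones and lower in 1 or more others: ITGA3, ITGA4, ITGA6, LAMA4, LAMB3 and LAMC1, where 7.24% of all genes were. Only ITGA3 kept its calls in both directions whichever single library was left out. For ITGA4, ITGA6, LAMA4, LAMB3 and LAMC1, every call in 1 of the directions ended when some single library was left out. Each of the 6 was called for any difference over the 5 groups with edgeR, while the difference between 2 clones was not tested directly. The dystroglycan complex gene SGCD differed in trend between the PAX3-FOXO1-FKBP and FOXO1-FKBP lines (edgeR adjusted p 0.00915), at 14.4 and 39.3 CPM in DMSO and at 72 h in the first and 32.9 and 27.2 CPM in the second.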

How the results depend on the processing

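Leaving out 1 clone-table library in turn, where the lone sample is assumed to vary like the other groups, gave 6 to 13 members higher and 2 to 5 lower in clone 4, 9 to 15 and 2 to 5 in clone 10, 1 to 3 and 8 to 11 in clone 11, and 9 to 12 and 4 to 7 in clone 12. All genes called were 3923 to 7027, 4586 to 8135, 4734 to 8069 and 4758 to 8181 in those clones, and for any difference 23 to 27 members and 9847 to 12319 genes. The GC and length correction and library totals for the clones were chosen after seeing the data: members lower in clone 4 were 6 under each, and with library totals 1 was higher in clone 11 and 8 were lower in clone 12. With library totals the median log2 change of all genes was -0.125, -0.0617, -0.231 and -0.192 in clones 4, 10, 11 and 12, in place of 0.048, 0.0534, -0.00484 and 0.0286, and higher calls made up 38.5%, 44.7%, 35.5% and 36.6% of calls, in place of 53.0%, 53.5%, 51.3% and 52.9%.

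In the PAX3-FOXO1-FKBP line, members rising were 0 with library totals and without the DMSO, 2 h or 72 h column, and 2 without the 24 h column; members falling were 0 without DMSO and 1 without 6 h or 72 h. All genes called there were 1046 with DESeq2, 120 without DMSO, 1407 without 24 h and 141 without 72 h. In the FOXO1-FKBP line they were 1 with DESeq2, 1189 without 24 h (6 members) and 1 without 72 h. For the difference between lines, 1 member was called with DESeq2 and after correction and 4 without 24 h, and all genes were 552 with DESeq2, 18 without DMSO, 90 without 2 h, 163 without 6 h, 685 without 24 h and 50 without 72 h. At a minimum mean of 10, 29 members passed the level filter in the PAX3-FOXO1-FKBP line. Of these, 3, 5 and 6 were past 2-fold at 6, 24 and 72 h, with ITGA9 among them each time. The lines then differed for 1 and 6 members at 6 and 72 h. At the minimum mean of 50 they differed for 4 at 72 h under library totals and for 2 at 24 h after correction. Shares of all genes past 2-fold were not counted in these settings, so no share stands beside these member counts.

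Uncalled log2 values that turned sign were ITGA3 in clone 4 (0.028, to -0.0050 with RLE scaling, -0.0053 with DESeq2, -0.0376 without a filter, -0.42 corrected, -0.15 with totals, and -0.205 to 0.296 without 1 library) and ITGB4 in clone 10 (0.047, to -0.0020, -0.0017, -0.0251, -0.67 and -0.0684 in that order, and -0.0218 to 0.0763 without 1 library). LAMB2 in clone 11 went from 0.078 to -0.28 corrected and -0.15 with totals. Without 1 library it was -0.0567 to 0.165, ITGA7 there -0.287 to 0.0655 and ITGA11 in clone 4 -0.32 to 0.76. ITGB1 in clones 4 and 10 became 0.16 and 0.18 and ITGA5 in clone 12 -0.0677 when corrected, and the ITGB3 slope difference was 0.0351 without 24 h. The cause was not tested.

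The labels do not say that a replicate number marks a shared batch. Deviations of same-numbered samples correlated at 0.62 (clones 4 and 10), 0.22 (4 and 11) and 0.18 (10 and 11), but at 0.07, 0.02 and 0.00 between parental cells and clones 4, 10 and 11, so the numbers were not taken as pairs. With the replicate number as a replicate block, 7129, 7762, 7735 and 6696 genes were called in clones 4, 10, 11 and 12.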
